A study of Mus musculus with 96 samples.

Results

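Fgf21 and Gdf15 are the genes for a pair of secreted proteins that are called mitokines, since muscle and other tissues release them when mitochondria are damaged. They were chosen by name and are 2 of the 54146 genes in a table of RNA-seq counts from C2C12 cells, a mouse myoblast line that fuses into contractile myotubes when serum is withdrawn. Both were followed through all 35 conditions of the study, which hold 96 samples with 2 or 3 samples each, and both were measured in each of them.

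FGF21 is a hormone of the fibroblast growth factor family that signals through FGF receptors joined to the co-receptor beta-Klotho, and liver is its main source in fasting. GDF15 is a distant member of the TGF-beta family whose receptor GFRAL, with its partner RET, is known mainly from the hindbrain, where it curbs feeding. Both genes are textbook targets of the integrated stress response, in which kinases that phosphorylate eIF2 alpha favor translation of the transcription factor ATF4. GDF15 is also a known target of p53, and Fgf21 of nuclear receptors of the PPAR family.

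Fgf21 (ENSMUSG00000030827) lies on the minus strand at chr7:45613886-45615490 of GRCm38, with 1 annotated transcript of 3 exons. Gdf15 (ENSMUSG00000038508) lies on the minus strand at chr8:70629393-70632456 and has 2 annotated transcripts, which start at 70632456 and 70632095 and have 3 and 2 exons. No other annotated gene overlaps either of them. The sequences that precede their starts are shown because the response of both genes to mitochondrial inhibitors is read at the level of their RNA. They come from RefSeq on GRCm38.p6. Shown are the 250 bases before the annotated start of Fgf21 (chr7:45615491-45615740, minus strand) and before the farther start of Gdf15 (chr8:70632457-70632706, minus strand). For the nearer Gdf15 start, 26 bases are shown (chr8:70632163-70632188, minus strand) around a CACGTG motif 83 to 78 bases before it. They lie in an exon of the transcript with the farther start (chr8:70632150-70632456), and the rest of that 250-base window is left out. Capitals mark matches to motifs.
Fgf21: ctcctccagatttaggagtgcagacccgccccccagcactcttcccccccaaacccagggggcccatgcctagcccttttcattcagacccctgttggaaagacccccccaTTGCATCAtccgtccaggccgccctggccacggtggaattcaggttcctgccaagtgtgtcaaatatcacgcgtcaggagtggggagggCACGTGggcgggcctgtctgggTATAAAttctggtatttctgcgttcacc
Gdf15, farther start: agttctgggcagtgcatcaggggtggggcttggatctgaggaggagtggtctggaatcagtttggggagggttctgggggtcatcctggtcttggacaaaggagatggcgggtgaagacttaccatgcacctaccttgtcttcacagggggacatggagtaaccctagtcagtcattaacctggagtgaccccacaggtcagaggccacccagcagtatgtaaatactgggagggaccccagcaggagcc
Gdf15, nearer start: cagggcagggCACGTGtgagcatcca

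In the 250 bases before each of the 3 starts 7 motifs were searched on both strands. The Fgf21 window held the core of the C/EBP-ATF response element (TGATGNAA) on the opposite strand 139 to 132 bases before the start, an E-box (CACGTG) at 50 to 45 bases and a TATA box (TATAAA) at 28 to 23 bases. Of 32851 mouse promoter windows of the same length, 3.45% held the C/EBP-ATF core, 6.02% the E-box and 12.4% the TATA box. The window before the farther Gdf15 start held no match to any of them, and an E-box stood 83 to 78 bases before the nearer start. The other motifs, with the share of windows that held them, began with the cyclic AMP response element TGACGTCA (1.55%) and the direct repeat bound by PPAR receptors (0.0335%). The EGR1 motif GCGTGGGCG (0.536%) and the p53 half-site (7.13%) were searched as well. No window before a start of Fgf21 or Gdf15 held one of these other motifs. A match is a run of letters and was not tested for binding.

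The myoblasts carried a doxycycline-inducible lentiviral transgene and proliferated in 300 ng/ml doxycycline. The transgene encoded luciferase as the control, LbNOX, a bacterial water-forming NADH oxidase that oxidizes NADH in the cytosol, mitoLbNOX, the same enzyme sent to mitochondria, or NDI1, the yeast NADH dehydrogenase that bypasses complex I. They received DMSO as the vehicle, 0.5 µM piericidin (an inhibitor of complex I), 0.5 µM antimycin (complex III) or 1 µM oligomycin (ATP synthase) for 10 hr. In a separate set, luciferase and LbNOX myoblasts received 20 µg/ml chloramphenicol, which blocks mitochondrial translation, or DMSO for 48 hr. Per the paper, fewer cells were seeded for chloramphenicol and uridine was present, which the media of the 10 hr inhibitors lacked. Largely post-mitotic cells held for 24 hr in low serum and myotubes differentiated for 4 days are together called low-serum cells here. The paper describes the 24 hr cells as far from differentiated. Low-serum cells carried no transgene, except for myotubes transduced with adenovirus for GFP alone or for GFP with LbNOX. They received DMSO, piericidin or oligomycin for 10 hr, and untransduced myotubes also antimycin or 0.5 µM BAM15, an uncoupler that lets protons back across the inner membrane. The myotubes called hypoxic here were moved to 5% oxygen the night before treatment and stayed there through it. Every transgenic line was a stable population of 1 cell line. Myoblasts and low-serum cells differed in serum, transgene and doxycycline, so that these cannot be told apart from the change of state. The labels do not say whether samples of a condition were separate cultures, so p-values measure the spread between these samples, which may be technical.

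Total counts per sample ranged from 6458295 to 15366745 (median 10336588.5), and 0 counts of a transgene were found in samples that should not carry it, against at least 372 in those that should. Values in CPM are counts per 1000000 counts of a library, scaled with edgeR's TMM factors. The row CT010467.1 alone held 24.2% to 31.1% of the counts of each library and was left in, which lowers every CPM printed here. A gene was called when its adjusted p fell under 0.05 in edgeR's quasi-likelihood test across all genes tested. The summed CPM of 8 myotube markers (Myog, Ckm, Acta1 and others) ran from 12.4 to 92.9 in myoblasts, from 12915 to 13676 in 24 hr cells and from 12902 to 16728 in myotubes. That of 4 markers of cycling cells (Mki67, Top2a, Ccna2 and Ccnb1) ran from 530 to 1226 in myoblasts, from 142 to 209 in 24 hr cells and from 15.5 to 135 in myotubes. A list of 4 myoblast markers (Myf5, Myod1, Des and Cdh15) went against its name, at 402 to 866 in myoblasts and 3395 to 4404 in myotubes. The 4 hepatocyte markers summed to at most 0.425 CPM in any sample, the 4 adipocyte markers to at most 0.703 and the 4 macrophage markers to at most 8.29. In these bulk samples, fewer cells that express a gene and less RNA per cell cannot be told apart.
Under DMSO Fgf21 differed between cell states far more than Gdf15 did. Control myoblasts gave 2, 1 and 1 Fgf21 counts, 24 hr cells gave 38.1, 47.9 and 45 CPM, and untreated myotubes gave 29.5, 30.4 and 26.2 CPM. The same myoblasts gave 4.73, 5.93 and 5.47 CPM of Gdf15, the 24 hr cells 4.82, 6.20 and 6.17 CPM, and the myotubes 1.85, 1.63 and 2.18 CPM. The 24 hr and myotube samples therefore all lay above the myoblasts for Fgf21, whereas for Gdf15 the 24 hr cells overlapped the myoblasts and the myotubes lay below both.

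Fgf21 counts in 24 hr cells exceeded those in myoblasts 391-fold (1520 against 4 counts, 95% counting interval 152 to 1435), and those in myotubes did so 256-fold (99.7 to 943). Counting intervals cover counting error only. Gdf15 did not pass the test between 24 hr cells and myoblasts (log2 fold change 0.09 ± 0.15 SE, adjusted p = 0.615) and fell by 1.48 ± 0.19 from myoblasts to myotubes (adjusted p = 5.92e-08). From 24 hr cells to myotubes Fgf21 fell by 0.57 ± 0.10 and Gdf15 fell by 1.57 ± 0.19 (adjusted p = 6.07e-05 and 9.63e-08). Of all genes tested, 63.6% were called between 24 hr cells and myoblasts, 69.4% between myotubes and myoblasts and 35.6% between myotubes and 24 hr cells. Per kilobase of transcript, control myoblasts held 0.122 CPM of Fgf21 and 3.68 CPM of Gdf15, and myotubes held 30.2 and 1.29, so the order of the genes was opposite in the 2 states.

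Ordered by mean CPM, the conditions ran for Fgf21 from 219 ± 1.43 (SD, n = 2) in GFP myotubes under oligomycin to 0 counts in luciferase myoblasts kept 48 hr in DMSO, and 9 of the 35 conditions held 16 or fewer Fgf21 counts in all. For Gdf15 they ran from 478 ± 10.3 CPM (SD, n = 3) in luciferase myoblasts under antimycin to 1.89 ± 0.276 CPM (SD, n = 3) in untreated myotubes, a 254-fold range. The 5 highest Fgf21 conditions were all low-serum cells under oligomycin, whereas the 3 highest Gdf15 conditions were all myoblasts under piericidin or antimycin. For each gene, 21 of the 34 pairs of neighbors in this order overlapped and 13 were separate.

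**Figure D1:**
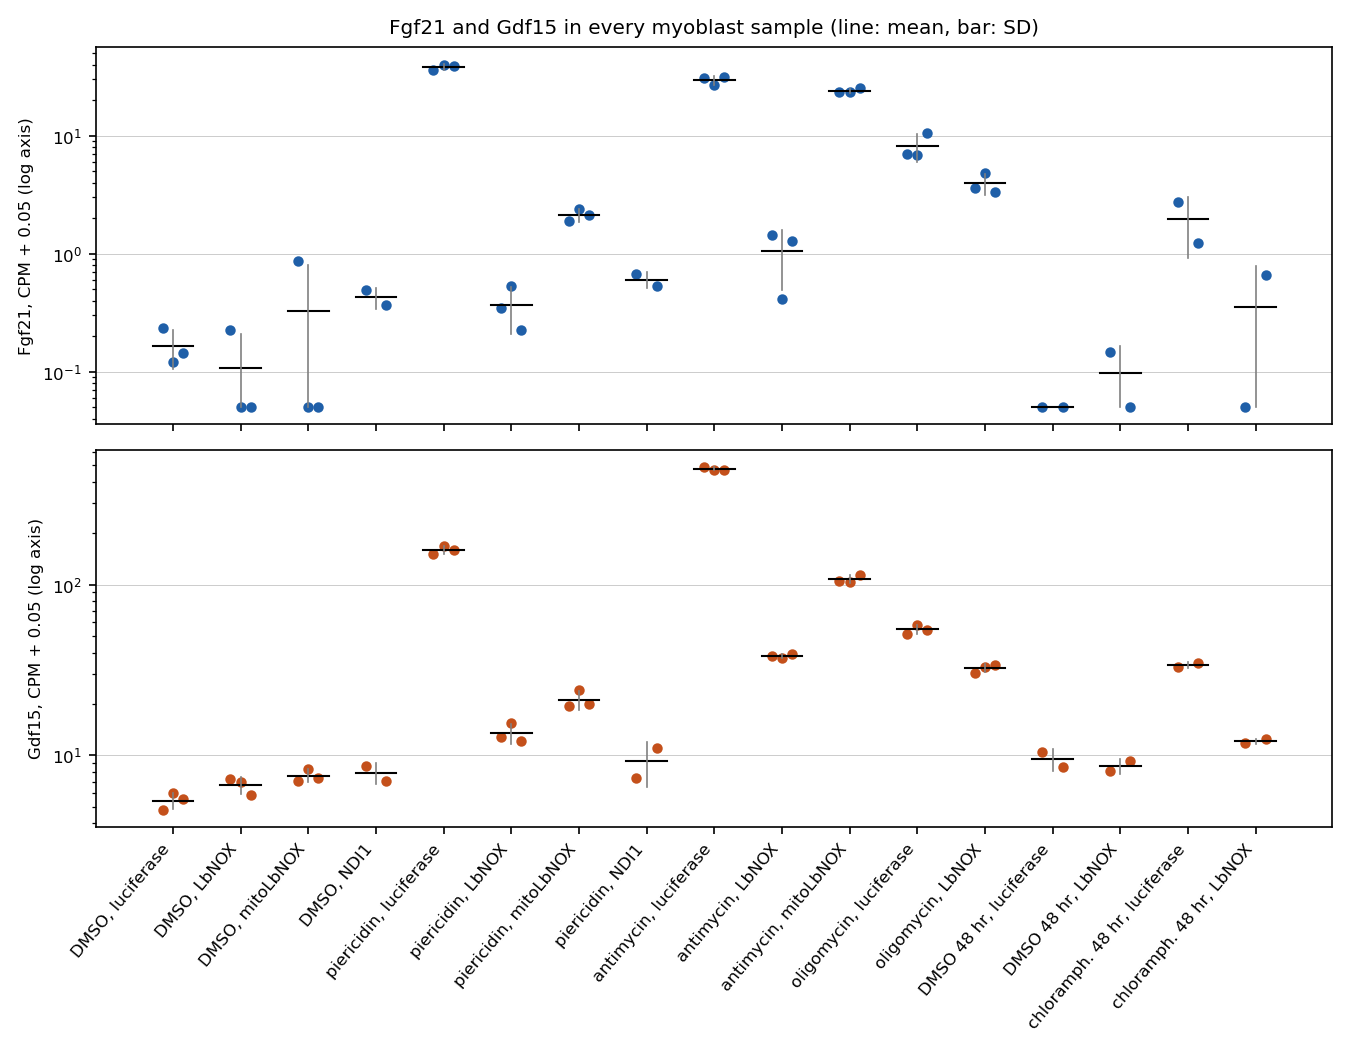
CPM of Fgf21 (top) and Gdf15 (bottom) in each myoblast sample on a log axis, with 0.05 CPM added so that 0 can be drawn, by treatment and transgene. Points are samples, lines are means and bars are SD (drawn down to 0 at most), and the highest Gdf15 samples are the luciferase antimycin samples at 472 to 490 CPM.

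In luciferase control myoblasts the 3 inhibitors raised both genes, antimycin gave by far the most Gdf15, and oligomycin gave the least of either. The question here was whether inhibitors with different sites of action differ in the response they evoke. Under piericidin Fgf21 stood at 35.6, 39.8 and 38.7 CPM, under antimycin at 30.8, 26.6 and 31.1 CPM, and under oligomycin at 6.93, 6.76 and 10.5 CPM. None of these samples overlapped DMSO, and piericidin and antimycin samples all lay above those of oligomycin. Gdf15 reached 150, 169 and 159 CPM under piericidin, 490, 472 and 473 CPM under antimycin, and 51.6, 58.0 and 54.2 CPM under oligomycin. These 3 sets did not overlap each other.

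Against the 4 Fgf21 counts under DMSO, the 1041 counts under piericidin were a 340-fold ratio (counting interval 132 to 1249), the 817 under antimycin a 264-fold ratio (103 to 971) and the 246 under oligomycin a 70.1-fold ratio (27 to 259). Gdf15 rose 30.1-fold, 90.9-fold and 10.2-fold (log2 fold change 4.91 ± 0.12, 6.51 ± 0.12 and 3.34 ± 0.12 SE). Adjusted p for Fgf21 was 1.4e-15, 4.44e-15 and 4.68e-11, and all 6 results were called, while 61.7%, 63.2% and 50.8% of all genes were called under piericidin, antimycin and oligomycin. In myoblasts Fgf21 passed the count minimum only through conditions where it was high, so its adjusted p here is a description. With no minimum every Fgf21 comparison of this set kept its direction and its side of the threshold. That setting raised the number of genes called in some other comparisons, so it does not settle the point.

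The inhibitors were then compared with each other. Antimycin exceeded piericidin 3.02-fold for Gdf15 (log2 difference 1.59 ± 0.09, adjusted p = 2.07e-14; 37.2% of genes called), but Fgf21 did not pass (−0.35 ± 0.25, adjusted p = 0.294). Fitted on the conditions compared alone, the Fgf21 difference was −0.37 with adjusted p = 0.0156. Oligomycin was lower than both others for both genes. Antimycin exceeded it 8.95-fold for Gdf15 and 3.77-fold for Fgf21 (50% of genes called), and piericidin exceeded it 2.97-fold and 4.82-fold (39.2% of genes called).

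A log2 ratio of Fgf21 to Gdf15 (0.5 CPM added to each) averaged −2.06 ± 0.03 (SD, n = 3) under piericidin, −2.71 ± 0.36 under oligomycin and −4.00 ± 0.11 under antimycin. The oligomycin samples (−3.01 to −2.31) lay between those of piericidin (−2.08 to −2.02) and those of antimycin (−4.12 to −3.90) and overlapped neither.

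LbNOX, mitoLbNOX and NDI1 asked how much of each response depends on the NADH/NAD+ balance of a compartment or on complex I itself. Under DMSO the transgenes moved Gdf15 little. LbNOX samples stood at 7.20, 6.92 and 5.77 CPM, mitoLbNOX samples at 7.03, 8.31 and 7.34 CPM and NDI1 samples at 8.62 and 7.05 CPM. The LbNOX samples overlapped the luciferase samples narrowly, and those of mitoLbNOX and NDI1 lay above them. NDI1 was called at a log2 difference of 0.53 ± 0.15 (adjusted p = 0.0337, with 4.61% of genes called), a call that was lost on the conditions compared alone (0.52, adjusted p = 0.293) and without the samples numbered 1 or 3 (0.27 and 0.53). LbNOX (0.29 ± 0.14, adjusted p = 0.395, with 2.68% of genes called) and mitoLbNOX (0.48 ± 0.14, adjusted p = 0.069, with 1.77% called) did not pass. The mitoLbNOX difference was called with a block for sample numbers (0.48, adjusted p = 0.0448) and with no count minimum (0.47, adjusted p = 0.0422). Fgf21 stayed at 2, 0 and 0 counts with LbNOX, 11, 0 and 0 with mitoLbNOX and 6 and 4 with NDI1.

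Under piericidin all 3 enzymes lowered both genes. Gdf15 stood at 12.8, 15.4 and 12.1 CPM with LbNOX, at 19.3, 24.1 and 19.8 CPM with mitoLbNOX and at 7.26 and 11.1 CPM with NDI1, against 150 CPM or more in luciferase cells. Fgf21 gave 3, 4 and 2 counts with LbNOX, 7 and 5 with NDI1, and 21, 32 and 24 with mitoLbNOX, against 313, 361 and 367 in luciferase cells. No sample with an enzyme overlapped the luciferase samples.

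At the same piericidin dose, a comparison added after the values were seen, Gdf15 fell by 3.59 ± 0.11 with LbNOX, by 2.93 ± 0.10 with mitoLbNOX and by 4.14 ± 0.14 with NDI1 on the log2 scale relative to luciferase cells (adjusted p = 5.75e-22, 2.4e-20 and 3.1e-21). The Fgf21 estimates were −6.93 ± 0.43, −4.19 ± 0.31 and −6.08 ± 0.46, given as a description, and 56.4%, 55.9% and 55.4% of all genes were called.

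Within each line, piericidin still raised Gdf15 2.04-fold with LbNOX (adjusted p = 6.74e-07; 8.87% of genes called) and 2.84-fold with mitoLbNOX (adjusted p = 3.61e-11; 11.2% called). In NDI1 cells the piericidin and DMSO samples overlapped and Gdf15 did not pass (0.24 ± 0.15, adjusted p = 0.65). It was −0.25 without the samples numbered 2. There edgeR called 1 gene, 0.00835% of those tested, where 1005 genes had an unadjusted p under 0.05 and DESeq2 called 6. Fgf21 passed with mitoLbNOX (6.82-fold, 77 against 11 counts, counting interval 3.61 to 14.2, adjusted p = 0.000334), but all 11 DMSO counts came from sample 1. The fold was at least 16.6 without the samples numbered 1, against a floor of 3 counts over the group, and 4.23 without those numbered 2. Fgf21 did not pass with LbNOX (9 against 2 counts, ratio 5.65, interval 1.17 to 53.7, adjusted p = 0.197) or NDI1 (12 against 10 counts, ratio 1.46, interval 0.579 to 3.78, adjusted p = 0.864). The LbNOX ratio was 2.55 without the samples numbered 2, and at least 2.64 against the same floor without those numbered 1.

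The change in response itself was tested as an interaction. Relative to luciferase cells, the Gdf15 response to piericidin was smaller by log2 differences of −3.89 ± 0.17 with LbNOX, −3.41 ± 0.17 with mitoLbNOX and −4.67 ± 0.20 with NDI1, all called beside 44.3%, 42.8% and 42.7% of genes. The Fgf21 interactions passed the test (adjusted p = 0.0234, 4.59e-05 and 2.43e-06), but they rest on few counts under DMSO. Without the samples numbered 1, which hold all 11 Fgf21 counts of mitoLbNOX cells under DMSO and both of LbNOX cells, the Fgf21 interactions of LbNOX and mitoLbNOX were no longer called (−3.98, adjusted p = 0.914, and −1.17, adjusted p = 0.777).

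Under antimycin the cytosolic and the mitochondrial enzyme gave different levels of both genes. Gdf15 stood at 38.0, 37 and 39.0 CPM with LbNOX and at 106, 103 and 114 CPM with mitoLbNOX, against 472 to 490 CPM with luciferase. Fgf21 stood at 1.38, 0.361 and 1.24 CPM with LbNOX and at 23.5, 23.3 and 25.1 CPM with mitoLbNOX, against 26.6 to 31.1 CPM with luciferase. For both genes the 3 lines did not overlap, although with mitoLbNOX the Fgf21 samples lay just under the luciferase samples.

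At the same antimycin dose, again a comparison added afterwards, Gdf15 fell by 3.66 ± 0.10 with LbNOX and by 2.15 ± 0.10 with mitoLbNOX (adjusted p = 3.66e-23 and 1.83e-17; 63.1% and 46% of genes called). The Fgf21 estimates were −4.84 ± 0.36 with LbNOX and −0.30 ± 0.26 with mitoLbNOX. Within each line antimycin raised Gdf15 5.86-fold with LbNOX (46.1% of genes called) and 14.7-fold with mitoLbNOX (47.7% called). Fgf21 gave 30 against 2 counts with LbNOX (ratio 19.5, interval 4.96 to 169), where neither condition reached the count minimum, and rose with mitoLbNOX from 11 to 724 counts (ratio 78.4, interval 43.6 to 158, adjusted p = 1.06e-13). Without the samples numbered 1 these ratios became at least 7.24 and at least 182 against the same floor, and without those numbered 3 the LbNOX ratio was 12.7.

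For Gdf15 the antimycin interactions were −3.96 ± 0.17 for LbNOX (51.5% of genes called), −2.63 ± 0.17 for mitoLbNOX (31.7%) and −1.32 ± 0.16 between the enzymes (29.2%), with adjusted p = 3.63e-18, 2.17e-13 and 2.5e-07. Those of Fgf21 did not pass (−3.90, −1.65 and −2.26, adjusted p = 0.0929, 0.197 and 0.377), and rest on DMSO groups with 2, 4 and 11 counts. DESeq2 gave −3.77 for LbNOX with adjusted p = 0.00928, and without the samples numbered 1 the mitoLbNOX value was 2.71.

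Under oligomycin LbNOX changed both genes less. Gdf15 stood at 30.5, 32.7 and 34.0 CPM with LbNOX, below the 51.6 to 58.0 CPM with luciferase, and Fgf21 at 3.58, 4.79 and 3.28 CPM, below 6.76 to 10.5 CPM. At this dose, again a comparison added afterwards, Gdf15 fell by 0.74 ± 0.10 relative to luciferase cells (adjusted p = 2.09e-06, with 19% of genes called). Fgf21 fell by 1.05 ± 0.31 (adjusted p = 0.0162), a call lost without the samples numbered 3 (−0.69, adjusted p = 0.313). Within the LbNOX line oligomycin raised Gdf15 4.96-fold and Fgf21 from 2 to 106 counts (ratio 71.2, interval 19.2 to 596; 35.2% of genes called), a ratio of 37.9 without the samples numbered 2 and at least 33.9 without those numbered 1. The interaction was −1.04 ± 0.17 for Gdf15 (adjusted p = 0.000116; 7.98% of genes called) and did not pass for Fgf21 (adjusted p = 0.997).

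In luciferase cells chloramphenicol for 48 hr raised Gdf15 less than the 10 hr inhibitors did, under other medium and seeding conditions. Gdf15 stood at 32.8 and 34.9 CPM in luciferase cells against 10.5 and 8.46 CPM with DMSO for 48 hr, and at 11.8 and 12.4 CPM in LbNOX cells against 8.01 and 9.25 CPM. Chloramphenicol samples lay above their DMSO samples in both lines, by little in LbNOX cells. Gdf15 rose 3.72-fold in luciferase cells (log2 fold change 1.89 ± 0.16, adjusted p = 0.000137; 8.45% of genes called) and did not pass in LbNOX cells (0.52 ± 0.17, adjusted p = 0.271; 0.931% called). The interaction was −1.38 ± 0.23 (adjusted p = 0.0442; 0.53% called), but its call was lost in every fit that left out 1 sample (−1.55 to −1.21).

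Fgf21 gave 26 and 12 counts in luciferase cells under chloramphenicol and 0 under DMSO, at least 17.3-fold higher against a floor of 3 counts over the group. This limit was 6.19 without the samples numbered 1 and 10.2 without those numbered 2. In LbNOX cells Fgf21 gave 6 against 1 counts (ratio 5.88, interval 0.714 to 271), and all 6 came from sample 2. It did not reach the count minimum for the test. Without that minimum its adjusted p was 1.9e-05 in luciferase cells, 0.907 in LbNOX cells and 0.763 for the difference in response, given as a description. In that fit 1399, 750 and 483 of 33176 genes were called, against 989, 109 and 62 with the minimum.

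**Figure D2:**
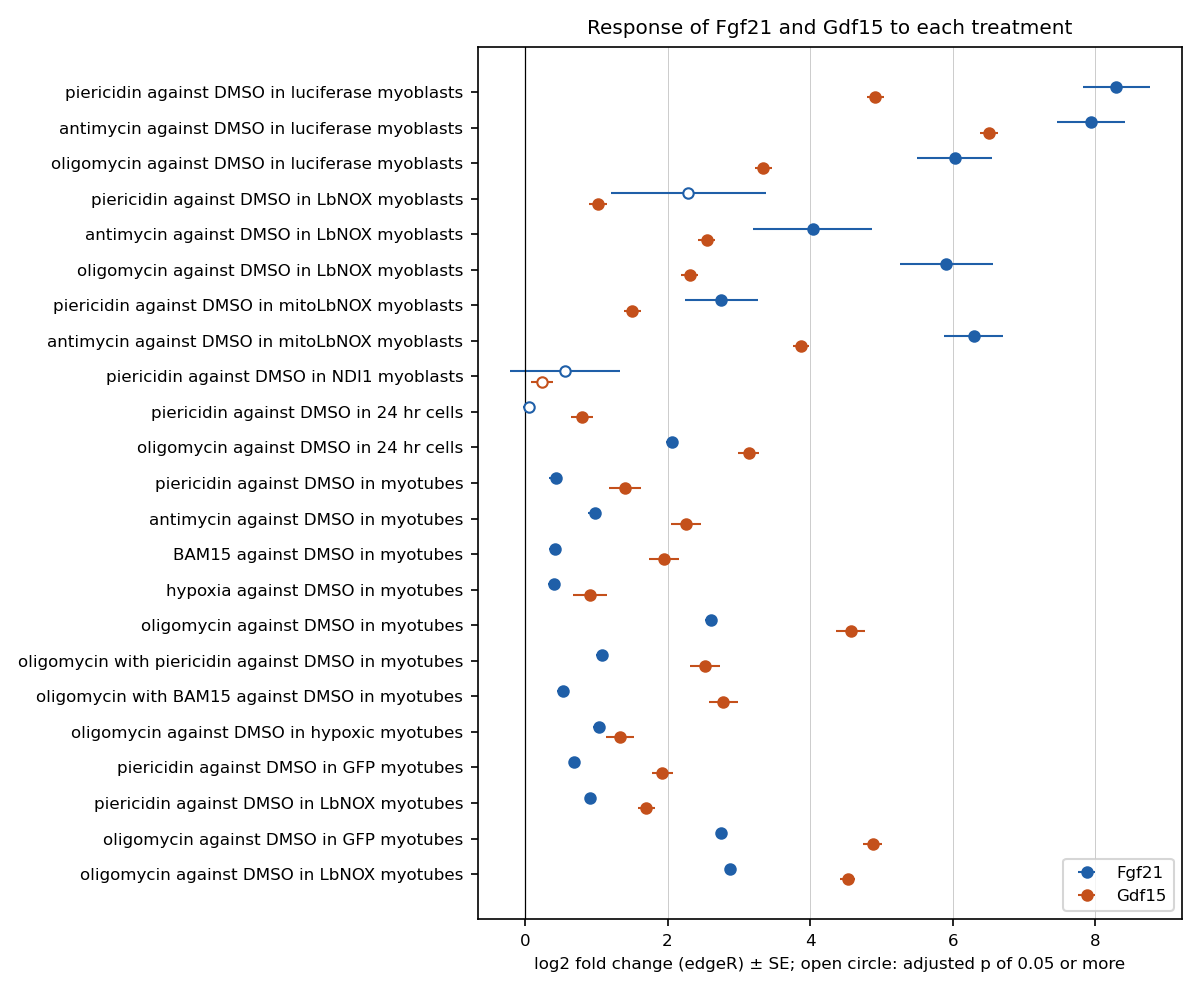
Log2 fold change of Fgf21 and Gdf15 with its SE (horizontal axis) in each comparison of a treatment with its DMSO control. Filled circles passed the test; in luciferase, LbNOX and mitoLbNOX myoblasts the Fgf21 points lie right of the Gdf15 points, and in every comparison of differentiated cells they lie left of them.

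In myotubes, which held Fgf21 RNA without any inhibitor, oligomycin and not antimycin gave the highest levels of both genes. Fgf21 stood at 174, 171 and 179 CPM under oligomycin, at 56.1, 58.8 and 53.4 CPM under antimycin and at 41.0, 40.6 and 34.8 CPM under piericidin, against 26.2 to 30.4 CPM under DMSO. Gdf15 stood at 44.7, 43.9 and 45.9 CPM under oligomycin, at 8.0, 9.62 and 9.53 CPM under antimycin and at 3.54, 4.68 and 6.34 CPM under piericidin, against 1.63 to 2.18 CPM. For both genes the treatments did not overlap each other or DMSO.

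Oligomycin raised Fgf21 6.09-fold and Gdf15 23.7-fold (log2 fold change 2.61 ± 0.08 and 4.57 ± 0.20, adjusted p = 1.21e-17 and 3.91e-15; 33.3% of genes called). Antimycin raised them 1.97-fold and 4.80-fold (adjusted p = 1.03e-08 and 2.88e-08; 12.9% called) and piericidin 1.35-fold and 2.65-fold (adjusted p = 0.00193 and 0.000167; 8.99% called). These comparisons share their DMSO samples, with 59 Gdf15 counts in all.

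BAM15 and hypoxia without oligomycin left both genes far below the level under oligomycin. Fgf21 stood at 36.0, 39.5 and 39.3 CPM under BAM15 and at 41.5, 35.2 and 37.4 CPM in hypoxia. Gdf15 stood at 5.83, 8.73 and 7.19 CPM under BAM15 and at 3.58, 3.88 and 3.25 CPM in hypoxia. Every one of these samples lay above the DMSO samples. BAM15 raised Fgf21 1.34-fold and Gdf15 3.86-fold (adjusted p = 0.000823 and 2.47e-07; 25.4% of genes called), and hypoxia raised them 1.32-fold and 1.89-fold (adjusted p = 0.00114 and 0.00546; 22.1% called). Without the samples numbered 2 the Gdf15 result in hypoxia was not called (0.74, adjusted p = 0.118).

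**Figure D3:**
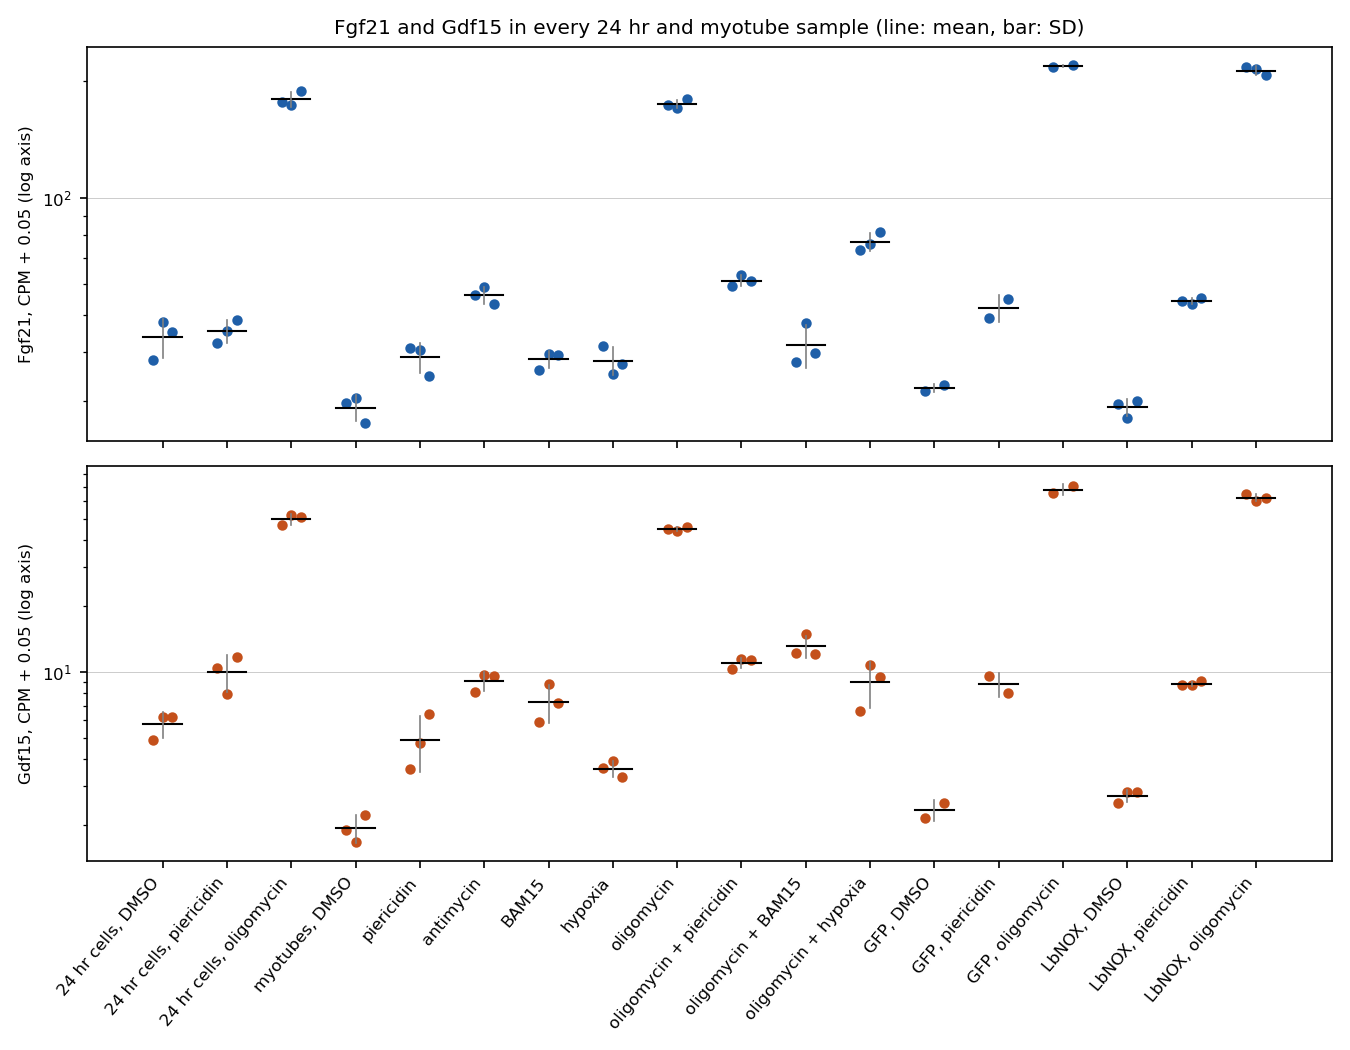
CPM of Fgf21 (top) and Gdf15 (bottom) in each 24 hr and myotube sample on a log axis, with 0.05 CPM added. Points are samples, lines are means and bars are SD; oligomycin alone lifts Fgf21 to 171 CPM or more in 24 hr cells, myotubes and transduced myotubes, and each combination in myotubes lies below it.

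Adding piericidin, BAM15 or hypoxia to oligomycin lowered both genes. These combinations asked whether a raised inner-membrane potential under oligomycin accounts for the response to it. Fgf21 stood at 59.1, 63.1 and 61.1 CPM with piericidin, at 37.6, 47.6 and 39.7 CPM with BAM15 and at 73.3, 76.0 and 81.5 CPM in hypoxia. Gdf15 stood at 10.2, 11.4 and 11.2 CPM with piericidin, at 12.2, 14.8 and 12.1 CPM with BAM15 and at 6.56, 10.7 and 9.40 CPM in hypoxia. No sample of a combination reached the level of oligomycin alone. BAM15 left the least Fgf21 and hypoxia the most, and for Gdf15 the BAM15 samples were the highest.

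Relative to oligomycin alone, Fgf21 fell by 1.52 ± 0.08 with piericidin, by 2.07 ± 0.08 with BAM15 and by 1.17 ± 0.08 in hypoxia (adjusted p = 3.35e-13, 7e-16 and 1.64e-11). Gdf15 fell by 2.04 ± 0.16, 1.79 ± 0.16 and 2.32 ± 0.17 (adjusted p = 9.32e-10, 4.22e-09 and 6.14e-11). Among all genes, 20.9%, 26.1% and 33.3% were called. All 6 interactions were called as well. The oligomycin response of Fgf21 was smaller by log2 differences of −1.95 ± 0.12 with piericidin, −2.49 ± 0.12 with BAM15 and −1.57 ± 0.12 in hypoxia, and that of Gdf15 by −3.44 ± 0.28, −3.74 ± 0.27 and −3.23 ± 0.29 (14.6%, 18.6% and 17.4% of genes called).

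Both genes still rose with oligomycin in the presence of piericidin and in hypoxia. Relative to piericidin alone, oligomycin with piericidin raised Fgf21 by 0.65 ± 0.08 and Gdf15 by 1.12 ± 0.19 on the log2 scale (adjusted p = 3.3e-05 and 0.000943; 1.19% of genes called), the Gdf15 result not called without the samples numbered 2 (1.05, adjusted p = 0.106). Relative to hypoxia alone, oligomycin in hypoxia raised Fgf21 2.05-fold and Gdf15 2.52-fold (4.26% called). Relative to BAM15 alone, Fgf21 overlapped and did not pass (0.11 ± 0.08, adjusted p = 0.654; 1.7% called), while Gdf15 was higher by 0.83 ± 0.17 (adjusted p = 0.00921), a call lost on the conditions compared alone (0.85, adjusted p = 0.0987) and in each fit that left out a sample number (0.75 to 0.89). Relative to DMSO, both genes were higher with piericidin and oligomycin together (log2 fold change 1.09 ± 0.08 and 2.53 ± 0.21; 12.8% called) and with BAM15 and oligomycin (0.54 ± 0.09 and 2.78 ± 0.21; 23.2% called).

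In transduced myotubes no change of either response with LbNOX was detected. Fgf21 stood at 31.7 and 32.8 CPM under DMSO, at 48.9 and 54.9 CPM under piericidin and at 218 and 220 CPM under oligomycin with GFP alone, and at 27.1 to 29.9, 53.2 to 55.2 and 207 to 217 CPM with LbNOX. Gdf15 stood at 2.11 and 2.47, 9.49 and 7.97, and 65.3 and 70.7 CPM with GFP alone, and at 2.48 to 2.77, 8.61 to 8.98 and 60.1 to 64.6 CPM with LbNOX. LbNOX and GFP samples overlapped under piericidin for both genes. Under DMSO and oligomycin they lay close together but did not overlap. There the LbNOX samples were lower, except for Gdf15 under DMSO, where they were higher.

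Piericidin raised Gdf15 by 1.93 ± 0.15 with GFP and by 1.70 ± 0.12 with LbNOX, and oligomycin raised it by 4.88 ± 0.13 and 4.52 ± 0.11 on the log2 scale. Fgf21 rose by 0.68 ± 0.07 and 0.91 ± 0.06 under piericidin and by 2.75 ± 0.07 and 2.87 ± 0.06 under oligomycin. All 8 results were called, beside 3.09% and 6.78% of genes under piericidin and 25.9% and 32% under oligomycin. On the conditions compared alone, both piericidin results with GFP were not called (Fgf21 0.68, adjusted p = 0.106, and Gdf15 1.92, adjusted p = 0.0854).

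The differences in response between LbNOX and GFP were 0.22 ± 0.09 for Fgf21 and −0.23 ± 0.20 for Gdf15 under piericidin, and 0.13 ± 0.09 and −0.35 ± 0.19 under oligomycin. The adjusted p was 0.932 or more for all of them. EdgeR called 0 genes in either interaction, where 567 and 525 genes had an unadjusted p under 0.05 and DESeq2 called 2 and 1. Under DMSO, LbNOX and GFP myotubes differed by −0.17 ± 0.06 for Fgf21 and 0.22 ± 0.16 for Gdf15, neither called, with 3 genes (0.0242%) called in all.

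Largely post-mitotic cells after 24 hr in low serum responded to oligomycin and little to piericidin. Fgf21 stood at 177, 174 and 189 CPM under oligomycin and at 42.2, 45.4 and 48.3 CPM under piericidin, the latter overlapping the 38.1 to 47.9 CPM under DMSO. Gdf15 stood at 46.6, 51.9 and 50.8 CPM under oligomycin and at 10.4, 7.89 and 11.6 CPM under piericidin, both above the 4.82 to 6.20 CPM under DMSO.

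Oligomycin raised Fgf21 by 2.07 ± 0.08 and Gdf15 by 3.14 ± 0.15 on the log2 scale (adjusted p = 1.09e-08 and 4.18e-08; 20.7% of genes called). Piericidin raised Gdf15 by 0.80 ± 0.16 (adjusted p = 0.0214; 2.75% called), but that call was lost on the conditions compared alone (0.80, adjusted p = 0.0780) and in each fit that left out a sample number (0.66 to 0.99). Fgf21 did not pass (0.06 ± 0.08, adjusted p = 0.796).

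The responses of low-serum cells and myoblasts were then tested against each other. On the log2 scale, the piericidin response in myotubes was smaller than in luciferase myoblasts by −7.82 ± 0.28 for Fgf21 and −3.45 ± 0.26 for Gdf15 (46.5% of genes called), and the antimycin response by −6.92 ± 0.30 and −4.20 ± 0.26 (47.9% called). The oligomycin response went opposite ways, −3.40 ± 0.40 for Fgf21 and 1.23 ± 0.21 for Gdf15 (adjusted p = 1.52e-07 and 6.83e-05; 29% called). In 24 hr cells the piericidin response differed from that of myoblasts by −8.19 ± 0.27 and −4.07 ± 0.19 (46.6% called), and the oligomycin response by −3.91 ± 0.38 for Fgf21 and by −0.17 ± 0.18 for Gdf15, which did not pass (adjusted p = 0.542; 24.9% called). The Fgf21 values rest on the 4 counts in DMSO myoblasts, and in CPM, oligomycin left more Fgf21 in myotubes than piericidin did in myoblasts, with means of 175 ± 4.38 and 38.0 ± 2.20 CPM (SD, n = 3).

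**Figure D4:**
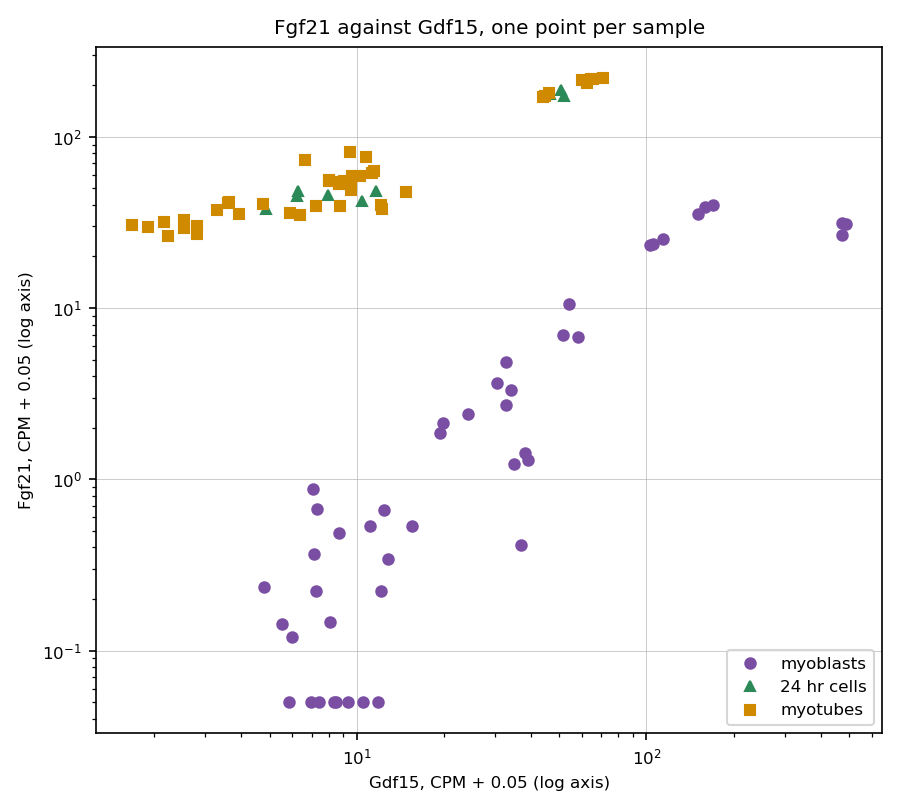
CPM of Fgf21 against CPM of Gdf15 in each of the 96 samples, on log axes with 0.05 CPM added, by cell state. The myoblast samples form one cloud and the differentiated samples another, which holds more Fgf21 at a given level of Gdf15, and both clouds rise from lower left to upper right.

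Within a state the genes moved together across conditions, but at different ratios. Over the mean log2 values of the 17 myoblast conditions Pearson's r was 0.944, over the 18 low-serum conditions 0.956 and over all 35 together 0.196. These are descriptions, since conditions share cell lines and libraries share base composition and preparation. The log2 ratio of Fgf21 to Gdf15 was below 0 in all 17 myoblast conditions and above 0 in all 18 low-serum ones. It averaged 3.62 ± 0.27 (SD, n = 3) in untreated myotubes and 1.95 ± 0.00 (SD, n = 3) under oligomycin, and the lowest low-serum value was 1.64 ± 0.05 with oligomycin and BAM15. In luciferase myoblasts under piericidin it was −2.06 ± 0.03. Where Fgf21 is near 0 counts the value depends on the 0.5 CPM added to both genes, so that no order is read among the other myoblast conditions.

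Genes of the integrated stress response rose under the same treatments. The ATF4 list held 20 enzymes and transporters of amino acid metabolism, and in luciferase myoblasts 20, 19 and 20 of them rose under piericidin, antimycin and oligomycin and 0 fell, where 30.9%, 32.1% and 24.5% of all genes rose. Cth, an enzyme of cysteine synthesis, rose by 4.50 ± 0.10, 3.07 ± 0.10 and 4.35 ± 0.10 on the log2 scale. Chac1, which degrades glutathione, rose by 4.60 ± 0.11 under antimycin and by 3.76 ± 0.11 under piericidin, and Aldh1l2, a folate enzyme of mitochondria, by 3.44 ± 0.07 under oligomycin. The median log2 fold change of the list was 2.33, 2.01 and 2.02. It thus stood highest under piericidin, whereas Gdf15 stood highest under antimycin, and in the direct comparison of antimycin with piericidin 14 list genes were lower and 3 higher, beside 37.2% of all genes called.

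With LbNOX the ATF4 list still moved. Of its 20 genes, 19 rose under piericidin (median 0.84), 19 under antimycin (median 1.11) and 20 under oligomycin (median 1.69), beside 5.01%, 23.3% and 17.5% of all genes. With mitoLbNOX all 20 rose under piericidin and antimycin (medians 1.21 and 1.70), beside 6.37% and 24.8% of all genes. In NDI1 cells under piericidin edgeR called 0 of the 20, where it called 0.00835% of all genes. Chloramphenicol raised 19 in luciferase cells (median 1.60) and 16 in LbNOX cells (median 0.83), beside 4.83% and 0.675% of all genes.

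In myotubes 19 ATF4 targets rose under oligomycin (median 1.58), 18 under antimycin, 13 under BAM15, 7 in hypoxia and 6 under piericidin, beside 16.9%, 6.64%, 13.2%, 12.3% and 4.15% of all genes. The count for hypoxia was 4 without the samples numbered 2 or 3, and that for piericidin 2 without those numbered 1 or 2. In 24 hr cells 19 rose under oligomycin (median 1.35), beside 10.6%. Relative to oligomycin alone 18 fell with piericidin, 17 with BAM15 and 18 in hypoxia, beside 12.4%, 14.1% and 16.5% of all genes. The median of all genes lay near 0 in these comparisons, from −0.01 to 0.04.

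Of 14 stress regulators tested, transcription factors and the pseudokinase Trib3, 12 rose and 2 fell under each inhibitor in luciferase myoblasts, where 30.9%, 32.1% and 24.5% of all genes rose and 61.7%, 63.2% and 50.8% were called under piericidin, antimycin and oligomycin. Atf3, a stress-induced factor of the ATF family, rose by 7.33 ± 0.21 under piericidin, 8.42 ± 0.21 under antimycin and 5.94 ± 0.22 under oligomycin. Trib3, which binds ATF4, rose by 5.26 ± 0.09, 5.83 ± 0.09 and 4.91 ± 0.09, and Ddit3, the factor CHOP, by 4.60 ± 0.07, 5.23 ± 0.07 and 4.08 ± 0.07. These estimates stood in the order of Gdf15, with antimycin highest and oligomycin lowest. In myotubes 11 of the 14 rose under oligomycin (16.9% of all genes), with Atf3 at 5.62 ± 0.16, Trib3 at 4.66 ± 0.09 and Ddit3 at 4.06 ± 0.08. With LbNOX under antimycin 5 rose and 4 fell (46.1% of all genes called), among them Trib3 (2.57 ± 0.09), Ddit3 (1.17 ± 0.07) and the immediate early factor Egr1 (−1.33 ± 0.11). There 3 rose without the samples numbered 1 or 3, and in luciferase cells under antimycin 1 fell without those numbered 1.

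Most p53 targets rose with LbNOX under antimycin, 14 of the 15 tested (median log2 fold change 1.14), beside 23.3% of all genes. Trp53inp1, a p53-induced regulator of autophagy, rose by 2.62 ± 0.26, Pmaip1, the cell death factor Noxa, by 1.91 ± 0.12 and Cdkn1a, the cell cycle inhibitor p21, by 1.89 ± 0.05. In luciferase myoblasts 8, 9 and 8 rose and 4, 2 and 3 fell under piericidin, antimycin and oligomycin, beside 61.7%, 63.2% and 50.8% of all genes called. Pmaip1 rose by 4.91 ± 0.12 under antimycin there. With LbNOX 0 rose and 3 fell under piericidin (8.87% of all genes called), and in myotubes 7 rose and 2 fell under oligomycin (33.3% called). Of those that fell, 1 was left with LbNOX without the samples numbered 2, and 0 and 1 in myotubes without those numbered 2 and 3.

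**Figure D5:**
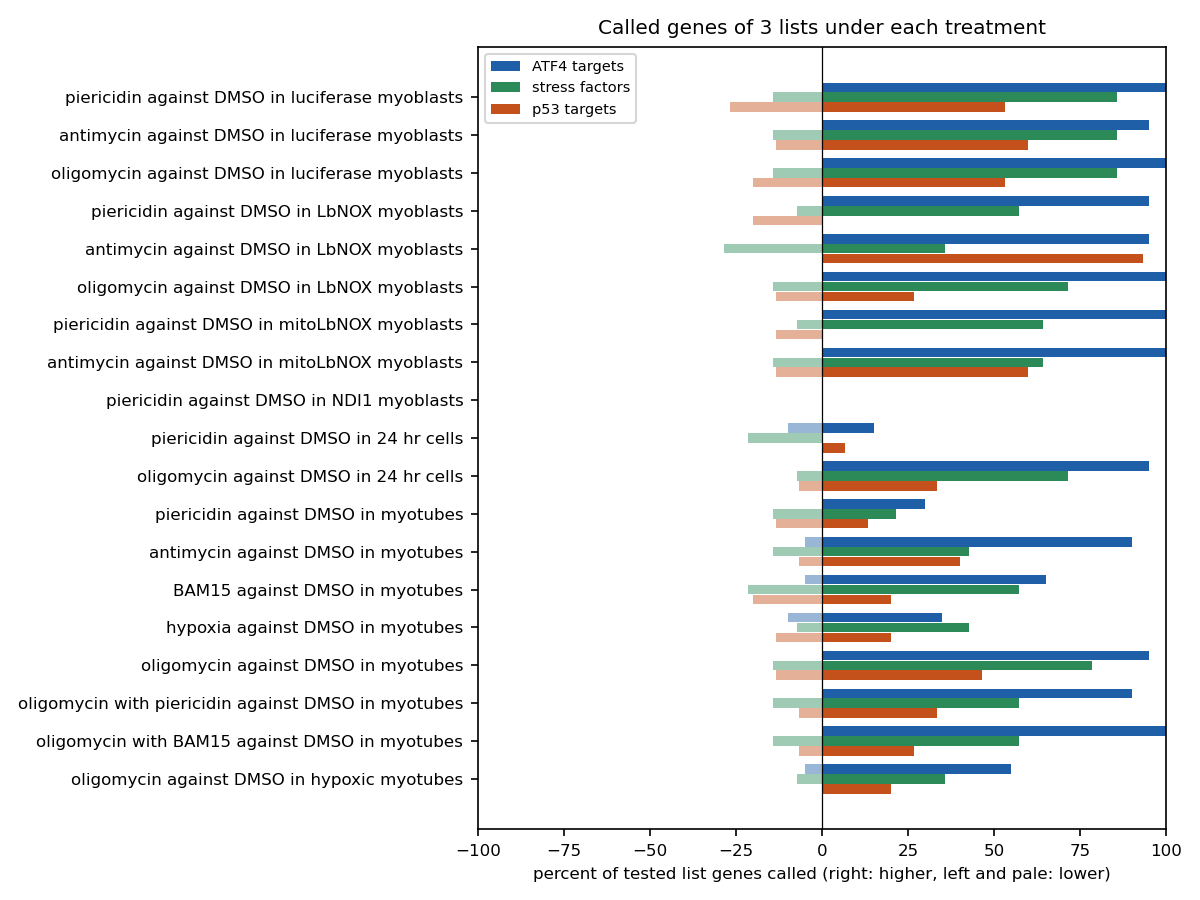
Percent of the tested genes of 3 lists (20 ATF4 targets, 14 stress regulators and 15 p53 targets) that were called higher (right, dark) or lower (left, pale) in comparisons of a treatment with DMSO in myoblasts, 24 hr cells and untransduced myotubes. Among the myoblast comparisons drawn, which leave out chloramphenicol, the ATF4 bar is full or short of it by 1 gene except for NDI1, where no gene of the lists was called.

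For the counts of the other lists, the share of all genes called was 61.7%, 63.2% and 50.8% under piericidin, antimycin and oligomycin in luciferase myoblasts. Of 5 genes for eIF2 alpha kinases and their mitochondrial relay tested, 0 rose and 3, 3 and 1 fell under piericidin, antimycin and oligomycin in luciferase myoblasts, with Eif2ak2, the kinase PKR, at −1.79 ± 0.21, −2.02 ± 0.21 and −0.98 ± 0.19, and edgeR called 0 of 5 under oligomycin in myotubes, where 33.3% of all genes were called. Without the samples numbered 3, 1 rose under piericidin in myoblasts and 1 fell in myotubes. Of 5 nuclear receptors and other regulators tied to Fgf21, 1 rose and 2 fell under piericidin, 3 rose and 1 fell under antimycin and 1 fell under oligomycin. The gene that rose under piericidin, Mlxip, does not encode a nuclear receptor. With outer wells as a covariate its calls under piericidin and antimycin were lost (0.32 and 0.37, adjusted p = 0.182 and 0.152). Under piericidin 0 rose without the samples numbered 1 or 3 and 1 fell in each fit that left out a sample number, and under antimycin 0 fell without those numbered 1 or 3. Pparg, the fat cell receptor, moved by −0.66 ± 0.20, 1.24 ± 0.19 and −0.87 ± 0.20, the piericidin result not called without the samples numbered 1 (−0.49, adjusted p = 0.0651). Of 12 other secreted factors, 4, 7 and 6 rose and 5, 3 and 2 fell, where 30.9%, 32.1% and 24.5% of all genes rose. Without the samples numbered 2, 3 fell under piericidin and 1 under oligomycin. Adm2, a peptide hormone, rose by 6.42 ± 0.23, 5.38 ± 0.24 and 5.44 ± 0.24, and Inhba, the activin subunit, by 2.71 ± 0.07 and 4.55 ± 0.07 under piericidin and antimycin. In myotubes under oligomycin 2 of 13 rose and 5 fell (16.9% of all genes rose), with Fst, the myostatin antagonist follistatin, at −3.14 ± 0.17, and 1 rose in each fit that left out a sample number.

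For FGF21, the cells held receptor RNA but almost none of the co-receptor. Under DMSO Klb gave 0 counts in luciferase myoblasts, 3 in myotubes and 1 in 24 hr cells, each summed over 3 samples, and Kl gave 2, 3 and 7. Fgfr1, the usual partner of beta-Klotho, averaged 16.5 ± 3.27, 22.1 ± 3.45 and 26.9 ± 1.94 CPM (SD, n = 3) in these states. Fgfr4 averaged 0.428 ± 0.185, 8.19 ± 0.965 and 13.2 ± 2.06 CPM, and the decoy receptor gene Fgfrl1 6.02 ± 0.921 CPM in myoblasts and 49.7 ± 2.80 CPM in myotubes. Fgfr2 averaged 3.08, 1.12 and 1.69 CPM, and Fgfr3 0.909, 3.35 and 1.23 CPM. From myoblasts to myotubes Fgfrl1 rose by 3.09 ± 0.16. Of 4 genes of this list tested under the inhibitors in luciferase myoblasts, 2 rose under antimycin, 1 fell under piericidin and 0 were called by edgeR under oligomycin. The shares of all genes called were 61.7%, 63.2% and 50.8% under piericidin, antimycin and oligomycin, and 4 genes are too few to compare with them. In addition, 1 fell under antimycin without the samples numbered 1 and 1 under oligomycin without those numbered 3. Antimycin raised Fgfr1 by 1.61 ± 0.16 and Fgfr2 by 1.38 ± 0.25 in luciferase myoblasts, and piericidin lowered Fgfrl1 by a log2 change of −0.86 ± 0.22 there.

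Among genes for the GDF15 receptor and for proteases of its pathway, Mmp14, a membrane protease, averaged 36.1 CPM in luciferase myoblasts, 109 CPM in myotubes and 90.0 CPM in 24 hr cells under DMSO, and Furin, which cleaves proproteins, 25.2, 22.0 and 25.3 CPM. Mmp14 fell by 0.97 ± 0.16 under piericidin in luciferase myoblasts and by 0.67 ± 0.11 under oligomycin in myotubes. Ret, the signaling partner of GFRAL, averaged 1.42, 1.20 and 0.26 CPM. Of 3 genes of this list tested in luciferase myoblasts, 1 rose and 1 fell under piericidin, 0 were called by edgeR under antimycin and 1 fell under oligomycin, beside the same shares of all genes. The one that rose was Ret (1.74 ± 0.65, adjusted p = 0.0209), a call lost without the samples numbered 2 or 3 (2.00 and 0.89, adjusted p = 0.0637 and 0.186) and with outer wells as a covariate (0.88). Pcsk5 gave 0, 3 and 0 counts over 3 samples, and Pcsk6 gave 12, 25 and 15.

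Gfral, the GDF15 receptor gene, gave few counts, most of them under oligomycin in myotubes. It gave 9, 17 and 14 counts under oligomycin and 0, 0 and 0 under DMSO in untransduced myotubes, at least 12.7-fold higher against a floor of 3 counts over the group. No test is given, since the gene missed the count minimum there and was singled out after its values were seen. In GFP myotubes it gave 16 and 14 counts under oligomycin and 1 under DMSO in all (ratio 28.1, counting interval 4.67 to 1146). In LbNOX myotubes it gave 24, 19 and 28 counts under oligomycin and 0 under DMSO, at least 20.8-fold higher.

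With piericidin added to oligomycin Gfral gave 4, 3 and 0 counts, with BAM15 1, 0 and 3, and in hypoxia 1, 1 and 0. No other annotated gene overlaps it. It lay at or under 8 counts in the luciferase myoblasts under oligomycin or piericidin.

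The genes whose mean log2 level over the 35 conditions was most like that of Fgf21, among 11950 genes, were Fyn, a Src family kinase (Pearson's r = 0.975), Fam13c (0.972), Ift172, a transport protein of cilia (0.968), Tsc22d3, the glucocorticoid-induced leucine zipper (0.967), and F11r, a junction protein (0.966). Those most like Gdf15 were Slc3a2, the heavy chain of amino acid exchangers (0.951), Mthfd2, a mitochondrial folate enzyme (0.947), Gpat3, an acyltransferase of lipid synthesis (0.946), Scpep1 (0.929) and Sars, seryl-tRNA synthetase (0.925). Slc3a2 and Mthfd2 belong to the ATF4 list. The correlations are descriptions over condition means, and for Fgf21 the difference between myoblasts and low-serum cells spans most of the range.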

How the data were processed

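RNA was measured by Smart-seq2, a polyA-primed, unstranded full-length protocol, in 96 samples sequenced on 2 flow cells. The authors quantified reads with kallisto 0.44 (demultiplexed with bcl2fastq 2.20.0.422 per the submitters' processing notes) against the mouse transcriptome with the transgenes added, and deposited whole-number estimated counts per gene from tximport. These can split reads between transcripts of similar sequence. Fgf21 and Gdf15, the gene lists and the comparisons were chosen with earlier results of these data known.

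The conditions were fitted in 6 sets with edgeR 4.0.16 in R 4.3.3 (quasi-likelihood F test, TMM, Benjamini-Hochberg over all genes tested, called at an adjusted p under 0.05). Genes needed 16 counts in every sample of at least 1 condition, which kept 11981 genes for myoblasts, 11704 for chloramphenicol, 12491 for myotubes, 12397 for transduced myotubes, 11827 for 24 hr cells and 12766 across states. Of 64 comparisons, 6 were added after the values were seen. No block for sample numbers was used. Counting intervals are 95% binomial. The named list genes are, from each list, up to 3 called genes with the largest change and a mean of at least 50 counts, except for receptor and protease genes, which are named where they passed the count minimum. Levels per kilobase used GENCODE vM21 transcript lengths (0.951 kb for Fgf21 and a mean of 1.46 kb for Gdf15). Alternatives were DESeq2 1.42.0, no minimum, fits on the compared conditions alone, a replicate block, outer plate wells as a covariate and leaving out each sample number. Scripts were tested on simulated data.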

Additional observations from a re-analysis of the deposited data

Results flagged for a closer look

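All results here are differences in response on the log2 scale that passed edgeR's test of the difference itself (adjusted p under 0.05). Relative to luciferase myoblasts, the piericidin response of Fgf21 differed by −6.00 with LbNOX, −5.54 with mitoLbNOX and −7.73 with NDI1, and that of Gdf15 by −3.89, −3.41 and −4.67. In myoblasts Fgf21 passed the count minimum only through conditions where it was high, and without the samples numbered 1 its LbNOX and mitoLbNOX differences were no longer called (−3.98, adjusted p = 0.914, and −1.17, adjusted p = 0.777). The antimycin response of Gdf15 differed by −3.96 with LbNOX and −2.63 with mitoLbNOX, and by −1.32 between these enzymes. With LbNOX the oligomycin response of Gdf15 differed by −1.04 and its chloramphenicol response by −1.38, but the latter call was lost with the replicate block (adjusted p = 0.116) and in every fit that left out 1 sample (adjusted p from 0.0514 to 0.229).

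In myotubes the oligomycin response of Fgf21 differed by −1.95 with piericidin, −2.49 with BAM15 and −1.57 in hypoxia, and that of Gdf15 by −3.44, −3.74 and −3.23. Between myotubes and luciferase myoblasts the Fgf21 response differed by −7.82 under piericidin, −6.92 under antimycin and −3.40 under oligomycin, and the Gdf15 response by −3.45, −4.20 and 1.23. Between 24 hr cells and luciferase myoblasts the piericidin response differed by −8.19 for Fgf21 and −4.07 for Gdf15, and the oligomycin response of Fgf21 by −3.91. Cell state, serum, transgene and doxycycline changed together in the comparisons of states and cannot be told apart.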

How the results depend on the processing

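For Fgf21 and Gdf15 126 results were recomputed under the alternatives, and of 1132 values 1096 kept their direction and their side of the threshold, 27 were no longer called, 4 became called and 5 changed sign. With no count minimum the Gdf15 difference between mitoLbNOX and luciferase myoblasts under DMSO became called (0.47), as it did with a replicate block (0.48). DESeq2 called the Fgf21 antimycin interaction of LbNOX (−3.77) and gave the opposite sign for its oligomycin interaction (0.0136). On the conditions compared alone, Fgf21 was called between antimycin and piericidin (−0.37), and the calls were lost for Gdf15 between NDI1 and luciferase cells (0.52), Gdf15 with oligomycin and BAM15 against BAM15 (0.85), Fgf21 and Gdf15 under piericidin in GFP myotubes (0.68 and 1.92) and Gdf15 under piericidin in 24 hr cells (0.80). The causes were not tested, other than that fewer samples entered these fits.

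Leaving out each sample number in turn (each single sample for chloramphenicol) moved the following results across the threshold or across 0. For Fgf21 the piericidin interaction ranged from −6.68 to −3.98 with LbNOX and from −5.88 to −1.17 with mitoLbNOX, the antimycin interaction with mitoLbNOX from −2.01 to 2.71, the oligomycin interaction with LbNOX from −0.76 to 1.87, mitoLbNOX against luciferase under DMSO from −2.95 to 1.73 and LbNOX against luciferase under oligomycin from −1.33 to −0.69. For Gdf15 piericidin in NDI1 cells ranged from −0.25 to 0.73, NDI1 against luciferase under DMSO from 0.27 to 0.74, the chloramphenicol interaction from −1.55 to −1.21, hypoxia from 0.74 to 1.09, oligomycin with piericidin against piericidin from 1.02 to 1.36, oligomycin with BAM15 against BAM15 from 0.75 to 0.89 and piericidin in 24 hr cells from 0.66 to 0.99.

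The correlation of the deviations of samples with the same number averaged −0.041 to 0.054 in the 6 sets. It was over 0.1 in 71 of 211 such pairs of myoblast samples and not in every pair of any set, so the numbers were not taken to pair the samples. With the replicate block the chloramphenicol interaction of Gdf15 was −1.38 and no longer called, the genes called there went from 62 to 22, and besides the mitoLbNOX result above no other call for either gene changed. The number of genes called over the whole table moved by more than 1.5 times in some settings. With no count minimum it went from 1 to 552 for piericidin in NDI1 cells, from 212 to 542 for mitoLbNOX against luciferase under DMSO, from 109 to 750 for chloramphenicol in LbNOX cells and from 62 to 483 for its interaction, from 149 to 380 and 212 to 393 for oligomycin added to piericidin or BAM15, from 841 to 1362 for piericidin in LbNOX myotubes, from 0 to 261 and 197 for the LbNOX interactions of piericidin and oligomycin in transduced myotubes, from 3 to 189 for LbNOX against GFP and from 325 to 613 for piericidin in 24 hr cells. With DESeq2 these were 6 for NDI1, 178 and 167 for chloramphenicol, 2 and 1 for the LbNOX interactions in transduced myotubes and 18 for LbNOX against GFP, which gave 5 with the block. On the conditions compared alone it went from 1063 to 558 for piericidin in LbNOX myoblasts, 1 to 0 in NDI1 cells and 383 to 27 in GFP myotubes, from 321, 212 and 552 to 171, 92 and 228 for LbNOX, mitoLbNOX and NDI1 against luciferase, from 2282 to 1479 for LbNOX under oligomycin, from 989 and 109 to 645 and 69 for chloramphenicol, from 532 to 263 for oligomycin in hypoxia and from 212 to 72 for oligomycin added to BAM15. With outer wells it went from 3702 to 2316 for the oligomycin response between myotubes and myoblasts and from 4549 to 2944 between myotubes and 24 hr cells. Leaving out samples moved the number of genes called by more than 1.5 times in 35 of 64 comparisons, downward in 33 of them. It went from 325 to between 25 and 47 for piericidin in 24 hr cells, from 62 to between 0 and 36 for the chloramphenicol interaction, from 989 to between 381 and 606 for chloramphenicol in luciferase cells, from 1063 to between 413 and 599 for piericidin in LbNOX myoblasts and from 1 to between 0 and 55 in NDI1 cells. Of 3060 values for the 342 pairs of a list gene and a comparison eligible for naming, 2884 kept their call, 176 lost it and 0 changed sign, and of 3296 list counts 353 moved by more than 1.5 times. Outer wells could not be fitted as a covariate for the 24 hr cells. Few counts limit Fgf21 in DMSO myoblasts.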
